A study of Mus musculus with 6 samples.

Results

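The 7 genes described here encode the beta subunits Atp1b1, Atp1b2 and Atp1b3 of the sodium-potassium ATPase and its FXYD regulators Fxyd1, Fxyd3, Fxyd5 and Fxyd6. They were chosen by name, with earlier results of these data known. All 7 were found among the 57180 gene identifiers of the deposited tables. The tables come from RNA-seq of the corneal endothelium of mice, in 2 groups of 3 libraries. Mice of both groups were homozygous for the Q455K allele of Col8a2, a collagen gene of Descemet membrane, and are used as a model of Fuchs endothelial corneal dystrophy. The Col8a2 group carried this allele alone and was labelled as the control. The Tcf4+/- group was labelled as also lacking 1 allele of Tcf4, which encodes a transcription factor of the E protein family. No group with intact Col8a2 is analysed here. Age and the number of animals behind a library are not given in the labels, so the p-values rest on a spread between libraries that may be technical in part. The comparison asked whether loss of 1 Tcf4 allele changes these genes in the model.

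The sodium-potassium ATPase moves sodium out of the cell and potassium in, at the cost of ATP. Its beta subunit is a glycoprotein needed for folding of the pump, its delivery to the membrane and its potassium affinity, and a small FXYD protein with a single membrane span can join the pump and tune its affinity for ions. In the corneal endothelium the pump sits in the lateral membranes, and the sodium gradient it makes drives the bicarbonate and fluid transport that keeps the cornea clear.

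Total estimated counts ran from 30344161 in Tcf4+/- replicate 3 to 54265479 in Tcf4+/- replicate 2. On the CPM scale (TMM-scaled counts relative to library size), the Tcf4 level was 313, 470 and 430 in Col8a2 libraries, and those labelled Tcf4+/- had 440, 599 and 373. The label's loss of Tcf4 was therefore not seen in its counts over the whole gene, and the groups are called by their labels only. The defining markers of corneal endothelium were present in every library, with 14 of 14 genes counted and a summed level of 15800 to 23800 CPM in the Col8a2 group and 13200 to 24000 CPM in the Tcf4+/- group. Lens markers summed to 33.9 to 628 CPM in the Col8a2 group and to 91.6, 4200 and 11200 CPM in Tcf4+/- replicates 1, 2 and 3. Of the 13 lens genes, 8 were counted in every library, and Cryba2, Crygs, Crygd, Mip and Lim2 were at 0 in some. Retina markers, 10 of 10 counted in every library, summed to 2490 to 3520 CPM in Col8a2 libraries, while Tcf4+/- replicates 1, 2 and 3 had 5100, 2480 and 10600 CPM. Tcf4+/- replicate 3 therefore held the least of the endothelial markers and the most of the lens and retina markers. Values without this library, and from a fit with the lens marker level as a covariate, are given with the results, while the part of the other tissues was not tested. In bulk libraries, fewer cells of a type and less RNA per cell cannot be told apart.

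None of the 7 genes passed the test between the groups. All 7 passed the filter on low counts and were tested with edgeR's quasi-likelihood test among 17639 genes, and 0 of 7 had an adjusted p under 0.05, where 0% of all genes did. No member had an unadjusted p under 0.05 either, where 2.42% of all genes did. DESeq2 called 0 of the 7 and 0.463% of the genes it gave an adjusted p, and limma voom called 0 members and 0% of all genes. Of the 7, 4 were fitted higher in the Tcf4+/- group and 3 lower. Their median log2 fold change was 0.22, against 0.001 over all genes tested. With the lens marker level of each library as a covariate, again with 0 members past the threshold, 3 of the 7 changed sign: Atp1b1 went from -0.28 to 0.11, Atp1b3 from -0.16 to 0.35 and Fxyd3 from 0.22 to -0.64 on the log2 scale. In the same fit Fxyd1 went from 0.62 to 0.04, Fxyd6 from 0.44 to 0.19, Atp1b2 from 0.59 to 0.41 and Fxyd5 from -0.31 to -0.74. The covariate itself partly follows the group. The mean log2 CPM of the lens markers was 2.93, -1.3 and 2.05 in Col8a2 libraries and 1.11, 5.89 and 6.57 in Tcf4+/- replicates 1, 2 and 3. This fit therefore cannot well separate group from lens level, and its values are not corrected effects. The values of the groups did not overlap in CPM for 1 member, Atp1b2, where 8.1% of all genes did not overlap.

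**Figure D1:**
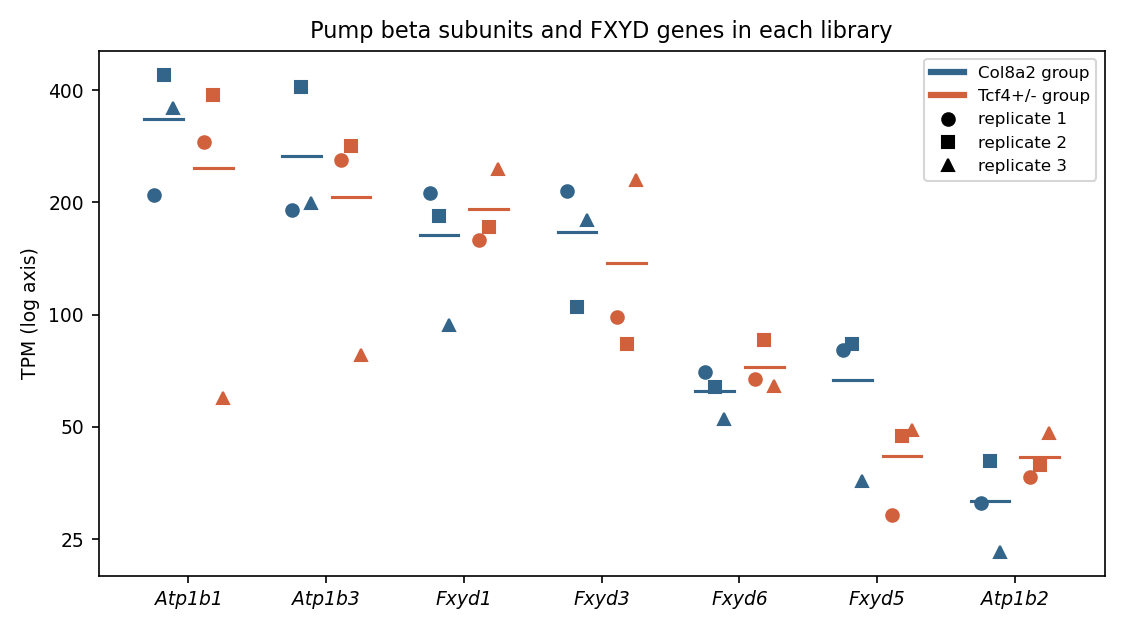
TPM of each gene in each library on a log axis, ordered by mean over the 6 libraries. Blue marks the Col8a2 group and orange the Tcf4+/- group, symbols mark the replicate and lines the group mean. Atp1b1 and Atp1b3 lie at 59.9 and 77.8 TPM in Tcf4+/- replicate 3, where Fxyd1 and Fxyd3 reach their highest values.

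Tcf4 protein binds E-boxes, sites with the letters CANNTG, so promoter windows of the members are shown with these letters in capitals. The RefSeq windows of build GRCm38.p6 run from 250 bases before to 50 after a start, and 6 of the 7 members matched, with 7 windows in all. Both strands were searched, and CAGCTG and CACCTG are special cases of CANNTG. Of 32851 windows of this length, 72.3% hold CANNTG, 16.3% CAGCTG and 20.2% CACCTG or its reverse complement. Shown are Atp1b1, the most abundant member, with no match, 1 of 2 windows of Atp1b3, with CACCTG, and Fxyd6, with CAGGTG and CAGCTG. Their coordinates are chr1:164458306-164458605 on the minus strand, chr9:96364382-96364681 on the minus strand and chr9:45369935-45370234 on the plus strand.
Atp1b1: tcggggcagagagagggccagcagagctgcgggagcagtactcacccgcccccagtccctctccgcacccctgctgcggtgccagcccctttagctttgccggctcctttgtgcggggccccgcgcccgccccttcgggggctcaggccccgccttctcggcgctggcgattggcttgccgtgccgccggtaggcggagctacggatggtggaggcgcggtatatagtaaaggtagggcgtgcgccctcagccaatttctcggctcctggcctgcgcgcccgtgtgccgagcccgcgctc
Atp1b3: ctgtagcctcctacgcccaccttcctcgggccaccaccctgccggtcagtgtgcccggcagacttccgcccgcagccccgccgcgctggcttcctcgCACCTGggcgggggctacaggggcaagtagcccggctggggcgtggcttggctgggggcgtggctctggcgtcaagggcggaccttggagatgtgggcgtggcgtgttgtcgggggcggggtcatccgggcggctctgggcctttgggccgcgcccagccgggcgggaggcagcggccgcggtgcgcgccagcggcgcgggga
Fxyd6: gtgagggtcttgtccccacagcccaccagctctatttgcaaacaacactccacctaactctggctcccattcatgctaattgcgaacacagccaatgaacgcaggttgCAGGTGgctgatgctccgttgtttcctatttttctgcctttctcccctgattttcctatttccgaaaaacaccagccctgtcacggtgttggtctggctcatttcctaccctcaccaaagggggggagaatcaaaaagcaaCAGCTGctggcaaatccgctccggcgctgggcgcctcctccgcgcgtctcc
The other window of Atp1b3 held 1 CACGTG, the window of Fxyd5 held 1 CATCTG, and those of Fxyd1 and Fxyd3 held no CANNTG. A match is a description of the letters and not of binding. The members with a match were fitted in both directions, with log2 fold changes of -0.16 for Atp1b3, -0.31 for Fxyd5 and 0.44 for Fxyd6, none past the threshold.

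Atp1b1 and Atp1b3 were the main beta subunit transcripts. Atp1b1 encodes the beta subunit found in most tissues, and it stood at 209, 440 and 357 TPM (transcript abundance corrected for length) in the Col8a2 group. Tcf4+/- libraries had 291, 389 and 59.9 TPM. The groups overlapped, and Tcf4+/- replicate 3 lay far below every other library. On the CPM scale the means were 687 ± 182 in Col8a2 libraries and 567 ± 364 in the Tcf4+/- group (SD, n = 3 each). The fitted log2 fold change of Atp1b1 (ENSMUSG00000026576) was -0.28 with a standard error of 0.54, and edgeR gave an adjusted p of 0.99988. The 95% interval ran from -1.47 to 0.92, a fold of 0.36 to 1.9. Without Tcf4+/- replicate 3 the log2 fold change was 0.15, so the sign rests on that library.

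Atp1b3, a widely expressed beta subunit, followed a like order. It stood at 191, 408 and 199 TPM in Col8a2 libraries, and 260, 284 and 77.8 TPM in Tcf4+/- libraries. The groups overlapped again, with Tcf4+/- replicate 3 lowest and Col8a2 replicate 2 highest. The means were 409 ± 139 and 366 ± 170 CPM (SD, n = 3 each). The log2 fold change of Atp1b3 (ENSMUSG00000032412) was -0.16 with a standard error of 0.44 and an interval from -1.14 to 0.82 (edgeR adjusted p = 0.99988). Its sign turned to 0.17 without Tcf4+/- replicate 3 and to 0.16 without Col8a2 replicate 2. Part of the reads of both genes was shared out by the authors' estimate, since their counts were not whole in 6 of 6 libraries, and Atp1b1 overlaps Nme7 on the opposite strand.

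Atp1b2, first described as an adhesion molecule of glia and also made by photoreceptors, was the least abundant of the 7 by mean TPM. Its level was 31.2, 40.5 and 23.1 TPM in Col8a2 libraries, and 36.6, 39.5 and 48.1 TPM in Tcf4+/- libraries. On that scale the groups overlapped, since Col8a2 replicate 2 lay above 2 of the Tcf4+/- libraries. Mitochondrial tRNA genes took 15.6 and 15.8% of the TPM in Tcf4+/- replicates 2 and 3 and 0% in the other libraries. The TPM of Atp1b2 is lowered by this in those 2 libraries. In CPM the Col8a2 libraries had 81.9, 84.6 and 54.0, and the Tcf4+/- libraries 86.3, 99.5 and 146. There the groups did not overlap, by a margin of 84.6 against 86.3 CPM. The log2 fold change of Atp1b2 (ENSMUSG00000041329) was 0.59 with a standard error of 0.31 and an interval from -0.11 to 1.28, with an unadjusted p of 0.088 and an adjusted p of 0.99988 by edgeR. Its highest value was in Tcf4+/- replicate 3, the library of highest retina marker level, at 10600 CPM. In CPM the next highest was in Tcf4+/- replicate 2. The retina marker level there was 2480 CPM, close to the 2490 CPM of Col8a2 replicate 2. The part of retina or glia in the Atp1b2 values was not tested. Markers of Schwann cells and glia, 7 of 7 counted in every library, summed to 151 to 177 CPM in Col8a2 libraries and 138 to 239 CPM in Tcf4+/- libraries. Leaving Tcf4+/- replicate 3 out gave a log2 fold change of 0.33.

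The share of each beta subunit in the summed TPM of the 3 does not depend on scaling between libraries. Atp1b1 held 48.5, 49.6 and 61.7% in Col8a2 libraries and 49.5, 54.6 and 32.2% in the Tcf4+/- group. Atp1b3 held 34.3 to 45.9% over all 6 libraries. Atp1b2 held 3.98 to 7.25% in 5 libraries and 25.9% in Tcf4+/- replicate 3. That library was thus the 1 in which Atp1b3 exceeded Atp1b1, with a ratio of Atp1b1 to Atp1b3 of 0.77 against 1.08 to 1.8 in the others. The group means of the Atp1b1 share, 53.3 ± 7.33% and 45.4 ± 11.7% (SD, n = 3 each), differed by -7.84 percentage points, with a two-sided exact permutation p of 0.5. For the Atp1b2 and Atp1b3 shares the differences were 7.3 and 0.536 points, with exact permutation p of 0.4 and 0.9. Without Tcf4+/- replicate 3 the differences were -1.24 points for Atp1b1 and 0.625 points for Atp1b2. The Atp1b1 difference was -3.61 points without Col8a2 replicate 3 and -12.4 points without Tcf4+/- replicate 2. That of Atp1b3 ran from -3.04 points, without Col8a2 replicate 3, to 2.74 points, without Col8a2 replicate 2, and was -0.613 points without Tcf4+/- replicate 1. With 3 against 3 this test cannot give a p below 0.1.

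**Figure D2:**
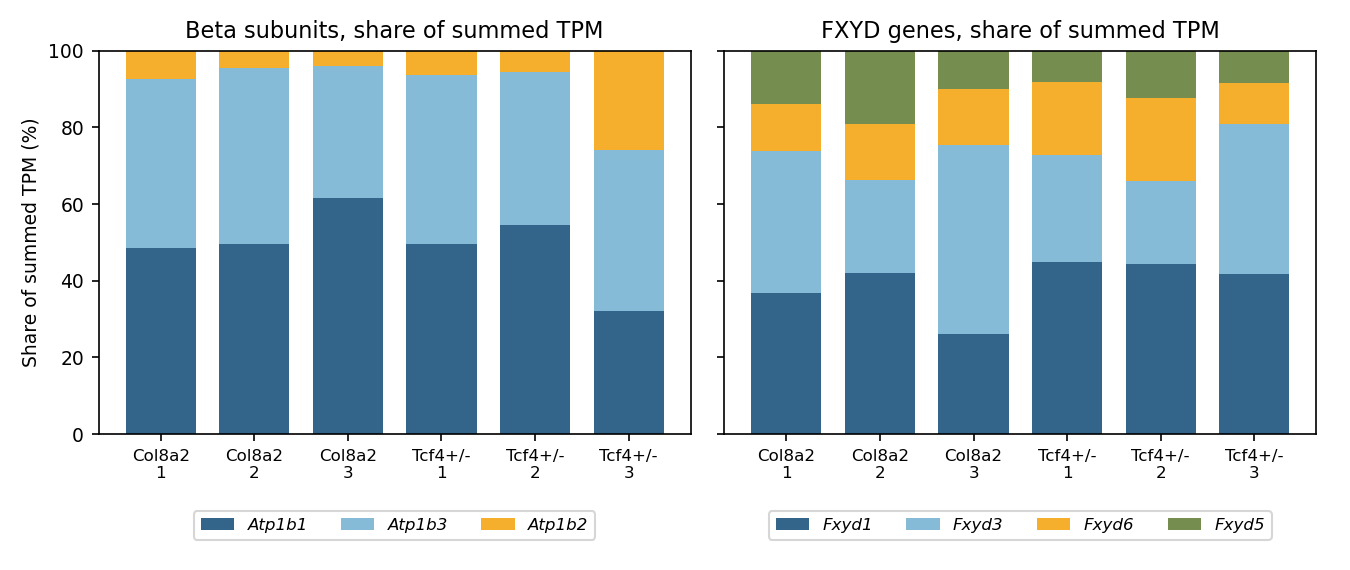
Share of each gene in the summed TPM of the beta subunits (left) and of the FXYD genes (right), as stacked bars with 1 bar per library. Atp1b2 takes 25.9% in Tcf4+/- replicate 3 and at most 7.25% elsewhere, while the FXYD shares overlap between the groups.

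Fxyd1 was the FXYD gene of highest mean TPM over the 6 libraries. In the Col8a2 group alone the mean was 164 TPM for Fxyd1 and 166 TPM for Fxyd3. In CPM, which is not corrected for length, Fxyd6 was highest. Its mean was 104 CPM, against 51.0 for Fxyd1 and 48.2 for Fxyd3. Fxyd1 encodes phospholemman, known as a phosphorylated regulator of the pump in heart and skeletal muscle. Its level was 212, 184 and 93.8 TPM in Col8a2 libraries, and 158, 172 and 246 TPM in Tcf4+/- libraries. The groups overlapped, with Col8a2 replicate 3 lowest and Tcf4+/- replicate 3 highest. The means were 40.3 ± 20.1 and 61.8 ± 29.3 CPM (SD, n = 3 each), and the log2 fold change of Fxyd1 (ENSMUSG00000036570) was 0.62 with a standard error of 0.45 and an interval from -0.4 to 1.63 (edgeR adjusted p = 0.99988). Leaving out 1 library moved this value between 0.17, without Tcf4+/- replicate 3, and 1.05, without Col8a2 replicate 1. Markers of muscle, 6 of 8 counted in every library and with Actg2 and Actc1 at 0 in some, summed to 180 to 268 CPM in the Col8a2 group and 272 to 312 CPM in the Tcf4+/- group. All 8 were fitted higher in the Tcf4+/- group, with a median log2 fold change of 1.98. Of them, 0 had an unadjusted p under 0.05 by edgeR, where 2.42% of all genes did. Their mean log2 CPM was 0.71, 1.92 and 2.13 in Col8a2 libraries and 3.53, 3.94 and 3.94 in Tcf4+/- libraries.

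Markers of some other cell types, but not of all, were also mostly fitted higher in the Tcf4+/- group. The median log2 fold change over all genes tested was 0.001. For keratocytes and fibroblasts, 8 of 8 markers were fitted higher with a median log2 fold change of 0.58, and all 8, counted in every library, summed to 5200 to 11000 CPM in Col8a2 libraries and 8120 to 17200 CPM in the Tcf4+/- group. For vessels, 6 of 6 were fitted higher with a median of 1.15, and the sums were 21.2 to 76.2 and 67.0 to 134 CPM, with Tie1 at 0 in some libraries. For erythroid cells, 5 of 5 counted in every library were fitted higher with a median of 1.56, and the sums were 531 to 1970 and 1360 to 6130 CPM. Of these erythroid genes 3 had an unadjusted p under 0.05 by edgeR, where 2.42% of all genes did. The same held for 8 of 12 lens markers tested and 3 of 10 retina markers. It held for 0 of 8 keratocyte and fibroblast, 0 of 6 vessel and 0 of 8 muscle markers, and for 0 genes of the other marker lists. After adjustment 0 genes of these lists passed with edgeR, where 0% of all genes did. Myeloid and pigment cell markers had 6 of 8 and 4 of 6 fitted higher, and Schwann cell and glia markers 4 of 7. Lens and retina markers had 12 of 12 and 10 of 10 fitted higher, with medians of 4.15 and 1.02. Corneal endothelium and corneal epithelium markers were mostly fitted lower, with 9 of 14 and 6 of 10 lower. The part of these cell types in the Fxyd1 values was not tested.

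Fxyd3, also known as Mat8 and typical of epithelia and tumours of epithelial origin, stood at 215, 105 and 179 TPM in the Col8a2 group. Tcf4+/- libraries had 98.2, 83.2 and 230 TPM. Tcf4+/- replicates 1 and 2 were thus the lowest of all libraries and replicate 3 the highest. The log2 fold change of Fxyd3 (ENSMUSG00000057092) was 0.22 with a standard error of 0.50 and an interval from -0.9 to 1.34 (edgeR adjusted p = 0.99988). The sign turned, to -0.63, when Tcf4+/- replicate 3 was left out. Of 10 corneal epithelium markers, 9 were counted in every library, with Krt16 at 0 in some. They summed to 6640, 3100 and 4060 CPM in Col8a2 libraries, and to 6870, 2310 and 4950 CPM in the Tcf4+/- libraries. Which library held most of them depended on the summary. The sum was highest in Tcf4+/- replicate 1, where Fxyd3 was lowest at 28.6 CPM, while the mean log2 CPM of the markers was highest in Col8a2 replicate 1, at 7.03 against 6.41 in Tcf4+/- replicate 1, and Fxyd3 was second highest there at 59.2 CPM. Their part in the Fxyd3 values was not tested. Fxyd3 overlaps Lgi4 on the opposite strand, and reads from a stretch that both share cannot be told apart without strand. The counts of Fxyd3 were not whole in 6 of 6 libraries.

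Fxyd5 and Fxyd6 were at lower levels by mean TPM. Fxyd5, or dysadherin, known to reduce cell adhesion, stood at 80.3, 83.6 and 35.8 TPM in Col8a2 libraries, and 29.0, 47.3 and 49.0 TPM in Tcf4+/- libraries. Its lowest value was in Tcf4+/- replicate 1 and the groups overlapped through Col8a2 replicate 3. The log2 fold change of Fxyd5 (ENSMUSG00000009687) was -0.31 with a standard error of 0.45 and an interval from -1.33 to 0.7. Without Col8a2 replicate 3 it was -0.64, and without Col8a2 replicate 1 it was -0.05. Fxyd6, or phosphohippolin, known from brain and inner ear, varied least of the 7, from 52.5 to 85.2 TPM. It stood at 70.3, 64.1 and 52.5 TPM in Col8a2 libraries, and 67.2, 85.2 and 64.4 TPM in Tcf4+/- libraries, so the groups overlapped. The log2 fold change of Fxyd6 (ENSMUSG00000066705) was 0.44 with a standard error of 0.28 and an interval from -0.18 to 1.06. Both genes had an edgeR adjusted p of 0.99988.

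**Figure D3:**
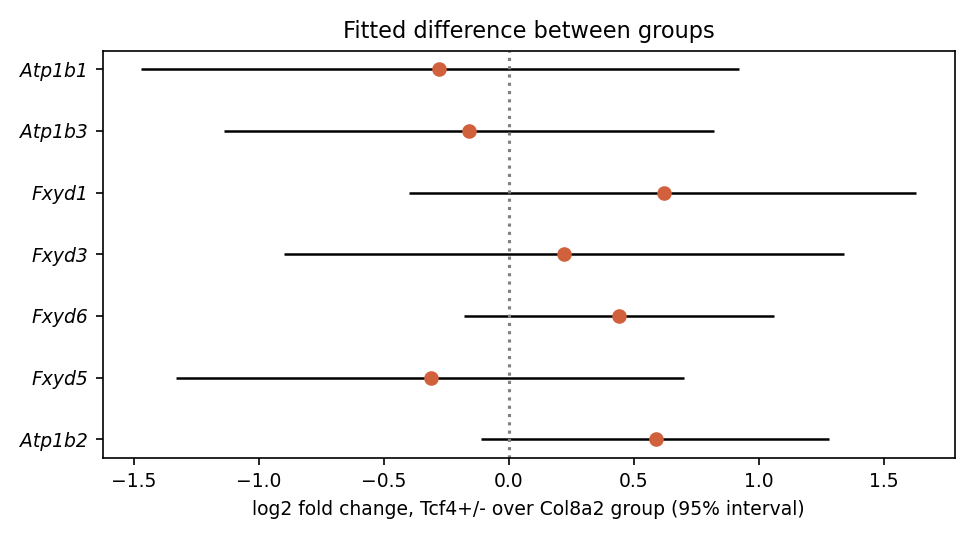
Fitted log2 fold change of each gene, Tcf4+/- over Col8a2 group, as points with 95% intervals from edgeR. All 7 intervals include 0, from -1.47 to 0.92 for Atp1b1 and from -0.11 to 1.28 for Atp1b2.

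Among the 4 FXYD genes, Fxyd1 and Fxyd3 together held most of the summed TPM. Fxyd1 held 26.0 to 42.1% in the Col8a2 group and 41.8 to 44.8% in the Tcf4+/- group. The means, 35.0 ± 8.22% and 43.7 ± 1.64% (SD, n = 3 each), differed by 8.72 points with an exact permutation p of 0.2. The difference was 4.24 points without Col8a2 replicate 3 and 4.27 points from counts without length correction. Fxyd3 held 21.5 to 49.5% over the 6 libraries. Fxyd5 held 9.92 to 19.1% in Col8a2 libraries and 8.23 to 12.2% in Tcf4+/- libraries, with a difference of -4.74 points and an exact permutation p of 0.2. For Fxyd3 and Fxyd6 the differences were -7.51 and 3.53 points, with exact permutation p of 0.5 and 0.4. Without Col8a2 replicate 2 the Fxyd5 difference was -2.34 points and that of Fxyd3 -13.9 points. The Fxyd3 difference was -1.22 points without Col8a2 replicate 3, -3.52 points without Tcf4+/- replicate 2, -12.3 points without Tcf4+/- replicate 3 and -3.58 points without length correction. That of Fxyd6 was 1.22 points without Tcf4+/- replicate 2 and 6.73 points without Tcf4+/- replicate 3. All 4 shares overlapped between the groups. TPM of these short genes leans on the fragment length assumed in the authors' estimate, as the effective length was 244 to 328 bases for Fxyd1 and 272 to 374 bases for Fxyd3, against 2310 to 2420 bases for Atp1b1.

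Set against the beta subunits, FXYD transcripts were scarcer by TPM in 4 of 6 libraries. The summed TPM of the FXYD genes over that of the beta subunits was 1.34, 0.493 and 0.623 in Col8a2 libraries and 0.599, 0.545 and 3.17 in the Tcf4+/- group. By TPM, Col8a2 replicate 1 and Tcf4+/- replicate 3 thus had more FXYD than beta transcripts, and the other 4 libraries less. These ratios lean on the correction for effective length. From counts without length correction the FXYD genes together lay below the beta subunits together in every library. The difference of group means was then 0.158, against 0.62 from TPM. From TPM the group means were 0.819 ± 0.457 and 1.44 ± 1.5 (SD, n = 3 each), with an exact permutation p of 0.7. Without Tcf4+/- replicate 3 the difference of means turned from 0.62 to -0.247, and it was 1.04 and 1.07 without Tcf4+/- replicate 1 or 2. The summed beta level ran from 186 TPM in Tcf4+/- replicate 3 to 888 TPM in Col8a2 replicate 2, while the summed FXYD level ran from 352 to 590 TPM.

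By mean TPM over the 6 libraries the order was Atp1b1, Atp1b3, Fxyd1, Fxyd3, Fxyd6, Fxyd5 and Atp1b2. The means with their SD over libraries were 291 ± 139, 237 ± 110, 178 ± 51.8, 152 ± 64.2, 67.3 ± 10.6, 54.2 ± 22.8 and 36.5 ± 8.59 TPM (n = 6). These levels placed Atp1b1 above 97.5% and Atp1b2 above 83.1% of the genes tested. Of the 6 neighbouring pairs in this order, only Fxyd3 and Fxyd6 differed by more than the SD of their difference over libraries, with 84.5 against 69.5 TPM. No neighbouring pair kept its order in all 6 libraries: Atp1b1 was above Atp1b3 in 5, Fxyd3 above Fxyd6 in 5 and Fxyd5 above Atp1b2 in 5, and the other 3 pairs in 4.

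Across libraries the members fell into unlike patterns. Likeness was measured as the root mean square difference of log2 CPM over the 6 libraries, with each gene centred on its mean, among 6789 named protein-coding genes of at least 10 TPM. The gene closest to Atp1b1 was Aqp1, the water channel of the endothelium, with a difference of 0.059, where the median over all genes was 0.863. Aqp1 had 2900, 4830 and 4920 CPM in Col8a2 libraries, and 4130, 5190 and 1100 CPM in Tcf4+/- libraries. Next were Svep1, Lpcat3, Gpr180 and Tcaf1, with differences from 0.084 to 0.115. Atp1b3 was at rank 269 with 0.377. The other 5 members were much farther from Atp1b1, at 0.996 for Fxyd6 to 1.423 for Fxyd3.

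**Figure D4:**
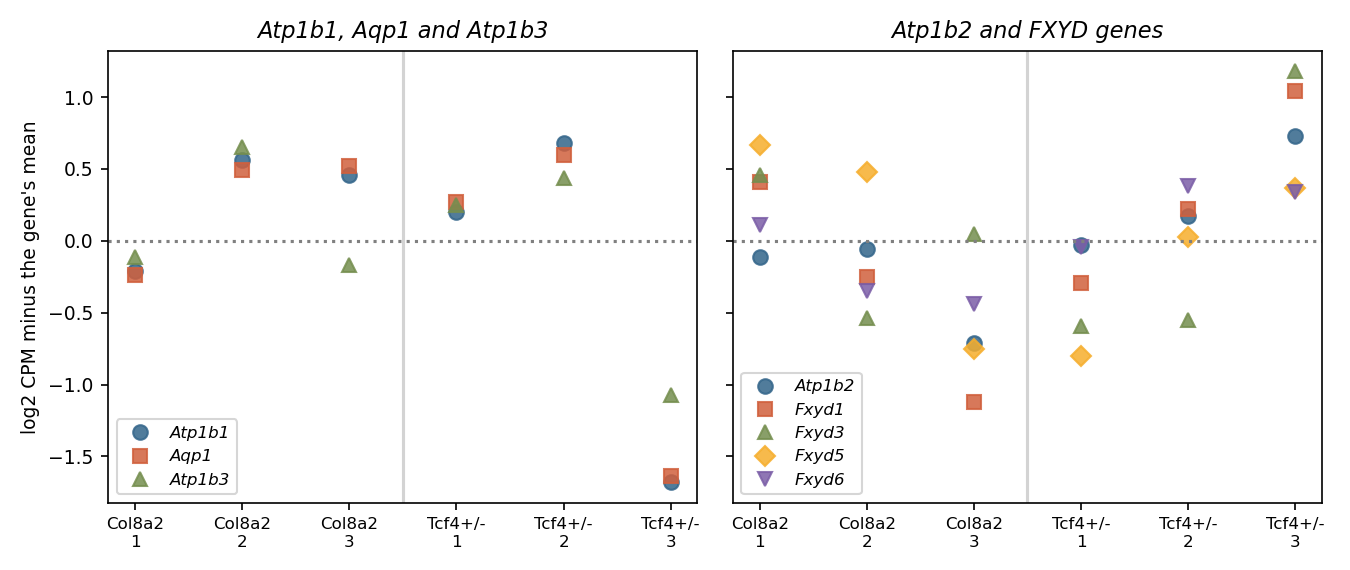
log2 CPM of each gene less its mean, in the 6 libraries, with Atp1b1, Aqp1 and Atp1b3 on the left and Atp1b2 and the FXYD genes on the right. Atp1b1 and Aqp1 lie at -1.68 and -1.64 in Tcf4+/- replicate 3, where Fxyd1, Fxyd3 and Atp1b2 lie at 1.04, 1.18 and 0.73.

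The genes closest to Fxyd1 were S100a4, Smim26, Luc7l3, Ccdc28b and Tmem238, with differences from 0.218 to 0.239, so no gene matched it as closely as Aqp1 matched Atp1b1. Among the members Atp1b2 came nearest to Fxyd1, at rank 41 with 0.329, then Fxyd6 with 0.438 and Fxyd5 with 0.498. These are descriptions over 6 libraries, which share their depth and tissue makeup between genes, and carry no test. Within 0.2 there were 24 genes for Atp1b1, 31 for Atp1b2, 55 for Atp1b3 and 57 for Fxyd6. Fxyd5 had 3, Fxyd3 had 2 and Fxyd1 had 0. The root mean square deviation of each gene from its own mean was 0.81, 0.42, 0.56, 0.31, 0.58, 0.65 and 0.67, in the same order. The counts are not adjusted for this spread.

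Of the other genes around the pump, given in 5 lists, 0 passed the test, where 0% of all genes passed with edgeR and 0.463% with DESeq2, so these counts of 0 set none of the lists apart from other genes. Of 7 other genes of the beta, FXYD and related proton pump families, 3 were tested, 2 fitted higher and 1 lower, and 0 passed in either direction with edgeR. Fxyd2, the gamma subunit of the kidney pump, stood at 3.23 to 9.47 TPM over the 6 libraries. Fxyd4, known from the collecting duct, stood at 6.64, 2 and 6.27 TPM in Col8a2 libraries and 14.1, 0 and 13.3 TPM in Tcf4+/- libraries. Of 11 partners and regulating kinases, 8 were tested and 0 passed. Sgk1, a kinase known to raise pump abundance, stood at 78.3 to 127 TPM and Wnk1, a volume-sensing kinase, at 32.8 to 79.1 TPM over the 6 libraries. Stk39, a kinase under the WNK kinases, and Sik1, the salt-inducible kinase, had the smallest p in this list, with unadjusted p of 0.0712 and 0.0744 by edgeR and levels of 8.84 to 19.7 and 1.03 to 3.99 TPM. All 15 sodium-coupled transporters were tested, with 6 fitted higher, 9 lower and 0 past the threshold, and a median log2 fold change of -0.04. Slc4a11, a transporter mutated in corneal endothelial dystrophy, was the highest of them at 800 to 2530 TPM, and Slc6a6, the taurine transporter, stood at 45.7 to 155 TPM. Slc20a1, a phosphate transporter, and Slc38a1, an amino acid transporter, had the smallest p, 0.127 and 0.262 by edgeR without adjustment.

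Potassium channels, which let pumped potassium leave the cell again, gave 9 tested of 10, with 4 fitted higher, 5 lower and 0 past the threshold. Kcnj13 and Kcnk1 were the highest, at 8.25 to 94.9 and 11.1 to 63.5 TPM, and Kcnk6 had the smallest p, 0.242 by edgeR without adjustment. All 18 other P-type ATPases were tested, with 8 fitted higher, 10 lower and 0 past the threshold, and a median of -0.1 against 0.001 over all genes. Atp9a, a phospholipid flippase relative, and Atp2b1, a plasma membrane calcium pump, were the highest at 29.3 to 68.2 and 17.1 to 40.6 TPM. Atp11a and Atp11b, lipid flippases, had the smallest p, 0.193 and 0.22 by edgeR without adjustment. At an unadjusted p under 0.05 these 5 lists had 0 genes by edgeR, where 2.42% of all genes tested passed. DESeq2 called 0 of them and 0.463% of the genes it gave an adjusted p.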

How the data were processed

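RNA-seq was made from corneal endothelial cells with the SMART-Seq HT and Nextera XT kits, per the labels' protocols, which name no strand marking. FastQC 0.12.1, fastp 0.23.2, STAR, RSEM, DESeq2 and build GRCm39 are named in the submitters' processing notes. The authors deposited expected counts, which are RSEM estimates not scaled to depth, and TPM values, which are corrected for effective length and scaled to the same sum. Mitochondrial tRNA genes took 15.6% of the TPM in Tcf4+/- replicate 2, 15.8% in Tcf4+/- replicate 3 and 0% in the other libraries, so TPM values of other genes are lowered there. Length minus effective length was 211 to 241 bases in 4 libraries and 155 and 150 bases in those 2.

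Of the 57180 identifiers, 51884 matched a symbol. Counts were rounded, filtered with filterByExpr, scaled by TMM (factors 0.973 to 1.06) and tested by group alone in edgeR 4.0.16 (quasi-likelihood test, R 4.3.3), with p-values adjusted by Benjamini-Hochberg over 17639 genes at 0.05. log2 fold changes are Tcf4+/- over Col8a2. Alternatives used DESeq2 1.42.0 and limma 3.58.1. Scripts were tested on simulated counts. Shares were compared with two-sided exact permutation tests. Replicate numbers come from the titles. Correlations of deviations between same-numbered libraries were -0.07, 0.39 and -0.05, so the numbers were not taken as pairs.

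The members and lists were chosen with earlier results of these data known. Named genes are the members and, in each list, the 2 of highest TPM and the 2 of smallest p. The 5 of most like pattern to the beta subunit and to the FXYD gene of highest mean TPM are also named. Tcf4 was named to check the labels. Some further pump genes are not reported here.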

Additional observations from a re-analysis of the deposited data

How the results depend on the processing

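Over 18 alternatives none of the 7 members was called, and their adjusted p ran from 0.774 to 1. The same held for the 5 lists of other genes, whose alternatives were chosen after seeing the data. Over all genes DESeq2 called 105, and leaving out 1 library gave 0 to 4 calls, the 4 without Col8a2 replicate 3. Of 126 member values, 13 changed sign. The lens marker level as a covariate partly follows the group. With it the log2 fold change of Atp1b1 was 0.11, of Atp1b3 0.35 and of Fxyd3 -0.64. Without a change of sign Fxyd1 was at 0.04, Fxyd6 at 0.19 and Fxyd5 at -0.74. When Tcf4+/- replicates 2 and 3 were both left out, the lone library of that group being assumed to vary like the others, Atp1b3 was at 0.07, Fxyd1 at -0.11 and Fxyd3 at -0.65. Fxyd3 was at -0.37 with limma on log2(TPM + 0.1) and on log2(TPM + 1), and at -0.07 with limma voom. On the TPM scales the median of all genes was -0.18 and -0.15. The cause of these changes was not tested. Leaving out 1 library gave ranges of -0.75 to 0.15 for Atp1b1, -0.43 to 0.17 for Atp1b3 and -0.63 to 0.53 for Fxyd3. Atp1b2, Fxyd5 and Fxyd6 kept their sign throughout, within 0.22 to 0.73, -1.07 to -0.05 and 0.16 to 0.63. With the replicate number as a block, Atp1b1 was at -0.49, Atp1b2 at 0.57 and Fxyd3 at 0.02, and 0 genes were called; only replicate 2 of each group correlated best with its own number. No difference in shares or in the ratio can pass the threshold, since the smallest possible exact p is 0.1 or more, and 2 changed sign. Leaving out 1 library gave differences of 4.24 to 12.3 points for the Fxyd1 share, -3.04 to 2.74 points for the Atp1b3 share and -0.247 to 1.07 for the FXYD to beta ratio. Without Tcf4+/- replicates 2 and 3 this ratio differed by -0.22.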
